A study of Mus musculus with 4 samples.

Results

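The integrated stress response and the unfolded protein response were examined through 36 mouse genes of the 54532 gene IDs in the deposited count table. The genes were chosen by name, with earlier results of these data known, and matched to Ensembl IDs by symbol. They form an ATF4 arm of 28 genes and a group of 8 genes of endoplasmic reticulum folding. All 36 passed the filter on low counts, among 13306 genes that did, so none was lost before testing. Their lowest mean count over the libraries was 93.2, for Gdf15, and their median was 1993, against 534 for all genes tested.

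The RNA came from primary mouse embryonic fibroblasts (MEFs), connective tissue cells grown directly from embryos, on a C57BL/6 background. There were 4 libraries, 1 per genotype. They came from wild type cells (WT), from cells without Zfp871 (Zfp871-/-), from cells without Trp53 (Trp53-/-) and from cells without either (Trp53-/-; Zfp871-/-), called the double null below. Zfp871 encodes a zinc finger protein and Trp53 encodes the transcription factor p53. The embryos were 12.5 to 13.5 days post-coitum in age, and all cultures were taken at passage 4 during exponential growth, with no stress agent named in the labels. The shared medium contained 10% fetal bovine serum, 55 µM beta-mercaptoethanol and non-essential amino acids, agents that the WT cells received too. Crosses of double heterozygotes gave the Trp53-/- and double-null cells, and crosses of Zfp871 heterozygotes gave the Zfp871-/- cells. WT cells came from either kind of cross, and which one supplied the WT library was not given in the sources used here. Therefore the cross and the loss of Trp53 cannot be told apart, and neither can the culture and the genotype. Pooling of embryos and the construction of the alleles are likewise not stated in these sources. The series asks how Zfp871 and p53 act together, and the comparisons here ask what each loss did to the stress response genes with the other gene present or absent.

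In the integrated stress response, several kinases sense amino acid shortage, misfolded protein, double-stranded RNA or heme shortage and phosphorylate the translation factor eIF2. General translation then falls while the transcription factor ATF4 is made in larger amounts from mRNA that is already there. ATF4 and its partners bind composite C/EBP-ATF elements (CARE) and switch on genes of amino acid supply, tRNA charging, redox control and feedback. In the unfolded protein response, the kinase PERK feeds into the same eIF2 route, while ATF6 and the spliced form of XBP1 raise chaperones of the endoplasmic reticulum through the ER stress element (ERSE). Fibroblasts secrete much collagen and so depend on this folding machinery. Counts per gene show neither ATF4 protein nor the splicing of Xbp1.

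The elements of both routes are shown first, because they were searched in sequence alone and do not rest on expression. The 250 bases before each transcription start were read from RefSeq promoters on GRCm38.p6, which were searched for 24 of the 28 genes of the ATF4 arm and for all 8 genes of the endoplasmic reticulum group. CARE was searched as TGATGNAA and ERSE as CCAAT and CCACG with 9 free bases between them, each on both strands. A CARE match lay before 6 of these 24 genes of the ATF4 arm and 1 gene of the endoplasmic reticulum group, against 3.45% of 32851 promoters. Some genes have more than 1 promoter, and counted by gene symbol 1056 of 27025 had a CARE match. An ERSE match lay before 3 genes of the endoplasmic reticulum group and 0 of the ATF4 arm. It lay in 0.113% of all promoters and before 35 of 27025 gene symbols. No CARE match overlapped an ERSE match in these genes. The p53 half-site, searched by its consensus, matched 7.13% of all promoters and lay before 2216 of 27025 gene symbols. Among the genes searched here it was found before Atf5 and before Hsp90b1, where it overlapped the distal ERSE match. These are matches of letters only, with no binding measured. The CARE matches are printed 5′ to 3′ on the strand of the gene with the match in capitals, which shows the reverse complement where the element lies in reverse.
Nupr1, chr7:126625562-126625591, minus strand: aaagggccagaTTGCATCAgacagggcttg
Asns, chr6:7693214-7693243, minus strand: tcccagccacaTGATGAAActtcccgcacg
Pycr1, chr11:120643833-120643862, minus strand: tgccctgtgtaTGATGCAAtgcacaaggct
Gars, chr6:55037960-55037989, plus strand: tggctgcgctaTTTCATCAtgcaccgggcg
Chac1, chr2:119351038-119351067, plus strand: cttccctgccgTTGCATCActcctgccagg
Vldlr, chr19:27216809-27216838, plus strand: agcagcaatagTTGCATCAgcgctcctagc
Herpud1, chr8:94386306-94386335, plus strand: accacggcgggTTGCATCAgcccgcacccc

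The core TTGCATCA, or its complement in Pycr1, was identical in 5 of these 7 sequences, and Asns and Gars differed at the free base. GENCODE M21 places the matches of Pycr1, Gars, Chac1 and Herpud1 outside exons, those of Nupr1 and Asns in an untranslated exon stretch of at least 1 transcript, and that of Vldlr in an exon. The ERSE matches of the endoplasmic reticulum group are printed the same way, with the whole 19-base element in capitals.
Hspa5, chr2:34772020-34772048, plus strand: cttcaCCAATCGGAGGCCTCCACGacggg
Hsp90b1, chr10:86705633-86705661, minus strand: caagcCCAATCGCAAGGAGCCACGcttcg
Hsp90b1, chr10:86705528-86705556, minus strand: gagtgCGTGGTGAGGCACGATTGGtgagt
Calr, chr8:84847070-84847098, minus strand: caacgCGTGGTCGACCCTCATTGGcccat

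The libraries held 19303167 to 22324599 counts. The targeted genes checked the labels as far as whole-gene counts can: Trp53 had 2383 and 2413 counts in the libraries with the gene and 1233 and 1382 in those labelled null, and Zfp871 had 660 and 784 against 327 and 307. All 12 fibroblast markers stood at 1 CPM (a count scaled to library size) or more in every library. Their sums were 33400.0 to 45900.0 CPM. With Trp53 loss 2 of them fell and 0 rose, where 4.31% and 5.01% of all genes did. In Trp53-/- against WT, 4 were at least 2-fold higher and 1 lower, where 8.9% and 8.88% of all genes were. In Zfp871-/- against WT, 2 were at least 2-fold higher and 1 lower, where 3.52% and 3.98% were. The 15 macrophage markers summed to 49.5 and 61.7 CPM in the WT and Zfp871-/- libraries and to 793 and 673 in the Trp53-/- and double-null ones, with none at 0 in any library, and all 15 rose with Trp53 loss. The 12 markers of cartilage and bone summed to 779 CPM in WT and to 40.4 to 86.6 in the other 3 libraries, with Matn1 at 0 in every library but Zfp871-/-. In bulk RNA, fewer cells of a type and less RNA per cell cannot be told apart. 8 markers of epithelium and mesothelium summed to 12.1 to 35.5 CPM and 6 of endothelium to 9.45 to 21.8 CPM, with Tie1 and Cldn5 at 0 throughout.

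All 36 genes had counts in every library. Levels are given as the authors' FPKM, a count scaled to exon length and library size, which allows genes to be set beside each other. A run of 4 values is always in the order WT, Zfp871-/-, Trp53-/- and double null. Calr, the lectin chaperone calreticulin, had the highest level of the 36 in every library, at 514, 428, 368 and 353 FPKM. Hspa5, the chaperone BiP, stood at 246, 215, 238 and 212 FPKM, and Hsp90b1, the chaperone GRP94, at 235, 258, 228 and 209. Of the ATF4 arm, Phgdh, the first enzyme of serine synthesis, was high in every library at 148, 165, 145 and 154 FPKM. Atf4 itself stood at 112, 97.2, 133 and 139 FPKM. Nars is left out of this order, because its FPKM did not match its annotated exon length. The lowest levels were those of the secreted proteins Stc2, at 1.91, 1.32, 2.34 and 2.68 FPKM, and Gdf15, at 4.81, 3.18, 1.18 and 1.04. Ddit3, which encodes the transcription factor CHOP, stood at 25.2, 17.4, 32.6 and 27.4 FPKM. Values of Phgdh carry a limit, since 9 loci have transcripts up to 98.7% identical to it. None of these loci held more than 36 counts in a library, against 6978 to 8907 for Phgdh.

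**Figure D1:**
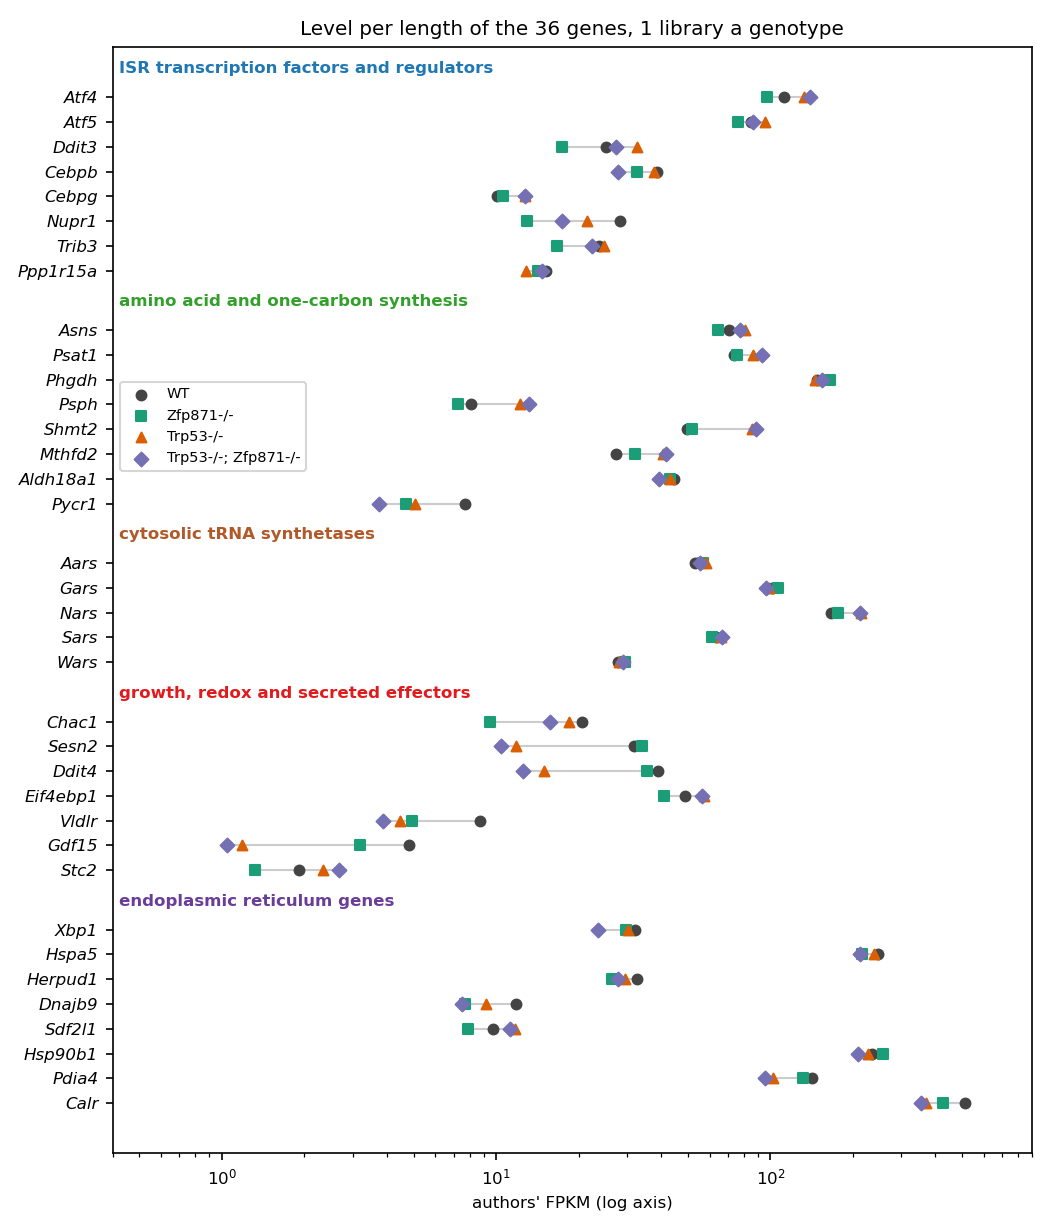
Level of each of the 36 genes in each library, in the authors' FPKM on a log axis, grouped by role, with 1 point per genotype and no error bar because each genotype has 1 library. Sesn2, Ddit4 and Gdf15 separate the Trp53-null libraries to the left, and Shmt2 and Psph separate them to the right. Nupr1 and Chac1 have their lowest point in Zfp871-/-.

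With loss of Trp53, 5 of the 36 genes passed the test, all of them in the ATF4 arm and not all in the same direction. Sesn2, Ddit4 and Gdf15 fell, while the serine and one-carbon enzymes Shmt2 and Psph rose, and 0 of the 8 genes of the endoplasmic reticulum group passed. The test was edgeR's quasi-likelihood test of the additive effects of Trp53 and Zfp871 over the 4 libraries, with Benjamini-Hochberg adjustment at 0.05 over 13306 genes. Ratios between 2 libraries are log2 ratios of normalized CPM, and their intervals cover counting error only. The test fits the effects of both losses and has 1 residual degree of freedom, the difference in Trp53 ratio between the 2 Zfp871 states. Its p-values therefore measure only the spread among these libraries. Agreement of the ratios in both backgrounds enters the test and is no separate support for a call. Of all genes tested, 5.01% rose and 4.31% fell with Trp53 loss. The 2 of 36 that rose and the 3 of 36 that fell are thus near the background.

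The falls were all among the effectors, a role of 7 genes listed here for growth, redox control and secreted or surface proteins. Sesn2 (chr4:132492032-132510501), the stress-inducible Sestrin 2 that restrains mTORC1 and is also a known p53 target, stood at 31.7, 34.1, 11.8 and 10.4 FPKM. Both Trp53-null libraries lay far below both others, and 74.7% of all genes had the same sign of Trp53 ratio in both backgrounds. Its fitted log2 change was -1.57 (SE 0.125, edgeR adjusted p = 0.0148), with ratios of -1.42 for Trp53-/- against WT and -1.71 for the double null against Zfp871-/-. Ddit4 (chr10:59949669-59951834), or REDD1, another inhibitor of mTORC1 and known p53 target, stood at 38.8, 35.6, 15.0 and 12.5 FPKM. The fitted change was -1.44 (SE 0.119, edgeR adjusted p = 0.0158). Gdf15 (chr8:70629393-70632456), a secreted stress cytokine that p53 is known to induce, had 169, 111, 48 and 45 counts. Its fitted change was -1.82 (SE 0.295, edgeR adjusted p = 0.0404), and its low counts left wide counting intervals, of -2.52 to -1.56 around the ratio of -1.98 with Zfp871 present and of -2.14 to -1.09 around -1.56 without it. Each of the 3 was at least 2-fold lower in both backgrounds. In Trp53-/- against WT no other gene of the 36 was, where 8.88% of all genes were, and in the double null against Zfp871-/- no other was either, where 6.33% were. 0 of the 36 were at least 2-fold higher in Trp53-/- against WT, where 8.9% of all genes were.

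The remaining effectors did not pass, and they did not share a direction. Vldlr, a lipoprotein receptor, stood at 8.75, 4.94, 4.47 and 3.88 FPKM, with WT above the other 3 libraries (edgeR log2 change -0.66, SE 0.185, adjusted p = 0.102). Eif4ebp1, which encodes a repressor of cap-dependent translation, stood at 48.8, 40.8, 57.4 and 56.4 FPKM, a fitted difference of 0.35 with an adjusted p of 0.134 by edgeR. Stc2, a secreted glycoprotein, had 188, 129, 266 and 323 counts, and in the double null against Zfp871-/- it was the 1 gene of the 36 at least 2-fold higher (log2 ratio 1.01, 95% counting interval 0.72 to 1.33), where 5.51% of all genes were. Chac1, which degrades glutathione, stood at 20.5, 9.47, 18.4 and 15.7 FPKM. It differed little with Zfp871 present (-0.15, interval -0.31 to 0.01) and exceeded its Zfp871-/- level in the double null (0.73, interval 0.53 to 0.94).

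Among the 8 genes of amino acid and one-carbon synthesis, 2 rose and 0 fell, where 5.01% and 4.31% of all genes did. Shmt2 (chr10:127517123-127522444), the mitochondrial serine hydroxymethyltransferase that passes a carbon from serine to folate, stood at 49.6, 51.9, 85.8 and 88.3 FPKM. The Trp53-null libraries exceeded the others by nearly the same ratio in both backgrounds, 1.73-fold with Zfp871 present and 1.70-fold without it (fitted log2 change 0.78, SE 0.105, edgeR adjusted p = 0.0311). Psph (chr5:129765558-129787449), the phosphatase that completes serine synthesis, stood at 8.10, 7.26, 12.2 and 13.2 FPKM. Its fitted change was 0.72 (SE 0.131, edgeR adjusted p = 0.048). Exons of Psph overlap those of Cct6a on the opposite strand over 10.4% of their length, the strand setting of the counting is not given in the sources used here, and Cct6a also had more counts in the Trp53-null libraries (6197, 7126, 8851 and 10259). The share of its reads in Psph was not tested.

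The neighbours of Shmt2 and Psph in the same pathway showed a range of differences. Mthfd2, the next mitochondrial folate enzyme, stood at 27.4, 32.0, 40.5 and 41.8 FPKM and missed the threshold (edgeR log2 change 0.48, SE 0.11, adjusted p = 0.0724), although it passed under total-count scaling. Psat1, the middle enzyme of serine synthesis, stood at 73.5, 75.8, 86.6 and 93.1 FPKM, a fitted difference of 0.27 with an adjusted p of 0.188 by edgeR. Phgdh, the first enzyme, showed a fitted difference of -0.06. Asns, asparagine synthetase, stood at 70.5, 64.3, 80.9 and 77.4 FPKM, which gave 0.23 (edgeR adjusted p = 0.224). The proline enzymes went the other way without passing: Pycr1 stood at 7.70, 4.70, 5.07 and 3.73 FPKM and Aldh18a1 at 44.6, 43.0, 43.0 and 39.4. All 8 genes had the same sign in both backgrounds, as did 30 of the 36, against 74.7% of all genes.

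None of the 8 transcription factors and regulators passed, where 5.01% of all genes rose and 4.31% fell. They did not all lie on the same side. 3 of the 8 were lower in Trp53-/- than in WT, where 49.9% of all genes were, with a median log2 ratio of 0.12. In the double null against Zfp871-/- 1 of the 8 was lower, where 49.8% were, with a median of 0.34. Atf4 (chr15:80255184-80257541) was higher by 0.25 (interval 0.19 to 0.30) with Zfp871 present and by 0.52 (interval 0.47 to 0.58) without it, with a fitted change of 0.39 (SE 0.125, edgeR adjusted p = 0.131). Ddit3 came nearest to passing, with ratios of 0.37 and 0.66 and an adjusted p of 0.0894 by edgeR. Cebpg, a bZIP partner of ATF4, stood at 10.1, 10.6, 12.7 and 12.7 FPKM (edgeR adjusted p = 0.148). Trib3, a pseudokinase that feeds back on ATF4, stood at 23.7, 16.6, 24.7 and 22.4 FPKM, and Atf5, a relative of Atf4 under similar translational control, at 85.0, 76.3, 96.0 and 86.2. Ppp1r15a, which encodes GADD34 and brings a phosphatase to eIF2, stood at 15.2, 14.2, 12.9 and 14.7 FPKM, lower by -0.24 (interval -0.38 to -0.10) in Trp53-/- against WT and within its counting interval without Zfp871. Nupr1, a small stress-induced nuclear protein, went in opposite directions, at -0.40 (interval -0.51 to -0.28) with Zfp871 present and 0.42 (interval 0.28 to 0.57) without it, which left a fitted change of 0.01. It was the 1 gene of the 36 whose intervals lay on opposite sides of equal for Trp53 loss, where 5.88% of all genes did so.

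The 5 tRNA synthetases did not pass either, where 5.01% of all genes rose and 4.31% fell. Nars, which charges asparagine tRNA, was the highest of them at 0.32 on the fitted log2 scale (SE 0.112, edgeR adjusted p = 0.149), with 8347, 8711, 12372 and 13016 counts. Aars, Gars, Sars and Wars, for alanine, glycine, serine and tryptophan, had fitted differences between -0.10 and 0.09.

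The endoplasmic reticulum genes differed from the ATF4 arm in where they lay, though none passed. 7 of the 8 were lower in Trp53-/- than in WT, where 49.9% of all genes were, with a median log2 ratio of -0.11 against 0.06 over the 28 genes of the ATF4 arm and 0.00 over all genes tested. In the double null against Zfp871-/-, 6 of 8 were lower, where 49.8% of all genes were, and the medians were -0.15 and 0.22. Pdia4, a disulfide isomerase, was nearest to passing at 142, 132, 102 and 95.7 FPKM (edgeR log2 change -0.47, SE 0.106, adjusted p = 0.0701). Calr showed -0.48 with Zfp871 present and -0.28 without it. Hspa5 was almost level, at -0.05 and -0.02, and Sdf2l1, a partner of BiP, was the only one higher in both pairs, at 0.27 and 0.50, from 204, 165, 285 and 289 counts. Under total-count scaling the median of all genes moved to 0.09 and 0.14 in these pairs, and 4 of the 8 were below 0 in each. The endoplasmic reticulum medians then stood at -0.02 and -0.01, still below the median of all genes. At an unadjusted p under 0.05, edgeR gave 8 genes of the 36 higher and 7 lower, where 15.3% and 15.7% of all genes were.

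**Figure D2:**
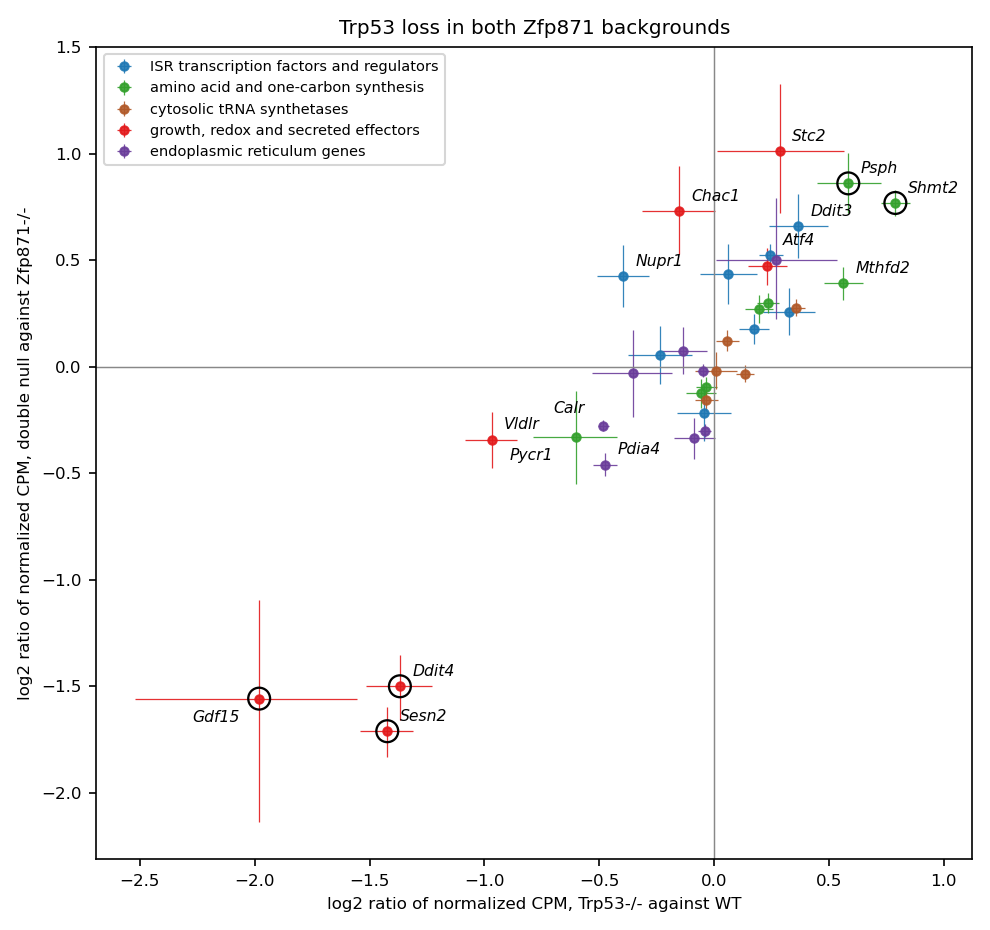
Log2 ratio of normalized CPM for Trp53 loss, with Zfp871 present on the x axis and without it on the y axis, 1 point per gene, coloured by role, with exact 95% counting intervals as lines and a ring around the 5 genes that passed the edgeR test. Gdf15, Ddit4 and Sesn2 sit at the lower left, between -1.37 and -1.98 on x and between -1.50 and -1.71 on y. Nupr1 and Chac1 lie at the upper left, where the pairs differ in sign.

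All 5 calls held in each of 7 other fits of the 4 libraries, by other scalings, filters and tools, 1 of which fitted Trp53 alone. Leaving out a library also required dropping the Zfp871 term, since 3 libraries with both terms leave no residual degree of freedom. In such fits with either Trp53-null library left out, edgeR called 0 genes in the whole table, with 5 of the 36 at an unadjusted p under 0.05 in each case. Without WT, 10 of the 36 were called higher and 4 lower, where 12.5% and 13.3% of all genes were. Without Zfp871-/-, 5 were called higher and 9 lower, where 19% and 18.8% of all genes were. The macrophage markers moved with Trp53 loss, at 673 to 793 CPM against 49.5 to 61.7, and their part in these changes was not tested.

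With loss of Zfp871, 0 of the 36 genes passed the same test, and 0 of the 13306 in either direction, a background of 0%. Zfp871 itself did not pass (log2 change -1.23, SE 0.171, edgeR adjusted p = 0.874), so the test says nothing on whether the 36 genes were stable. The smallest adjusted p among the 36 was 0.874, and neither the DESeq2 Wald test nor limma-voom called any of them. Over all genes, the DESeq2 Wald test called 3 higher and 4 lower, and limma-voom 0. At an unadjusted p under 0.05, 6 of the 36 were lower by edgeR (Ddit3, Cebpb, Nupr1, Pycr1, Vldlr and Dnajb9), where 2.07% of all genes were, and 0 were higher, where 1.76% were. The pairs of libraries are therefore given as descriptions, with intervals that cover counting error only. Zfp871-/- against WT and the double null against Trp53-/- share no library.

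The largest differences were in Nupr1 and Chac1, and they were smaller without Trp53. Nupr1 (chr7:126623249-126630861) stood at a normalized 71.6 CPM in WT and 32.8 in Zfp871-/-, a ratio of 2.18-fold (log2 -1.13, interval -1.27 to -0.99). In Trp53-/- it stood at 54.4 CPM and in the double null at 44.0, 1.24-fold lower (log2 -0.31, interval -0.43 to -0.18). Chac1 (chr2:119351229-119354381) was 2.17-fold lower in Zfp871-/- than in WT (log2 -1.12, interval -1.33 to -0.92) and 1.17-fold lower in the comparison without Trp53 (log2 -0.23, interval -0.40 to -0.07). Both genes thus had the same sign in both pairs, and the intervals of the pairs did not overlap. These 2 were the only genes of the 36 at least 2-fold lower in Zfp871-/- against WT, where 3.98% of all genes were, and 0 of the 36 were at least 2-fold higher, where 3.52% were. In the double null against Trp53-/-, 0 of the 36 reached 2-fold in either direction, where 1.01% of all genes were lower and 0.819% higher. Whether the pairs differ beyond culture spread was not tested, as each has 1 library on a side.

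Other regulators lay on the same side. Ddit3 was lower by a log2 ratio of -0.55 with Trp53 present and -0.26 without it, Trib3 showed -0.52 and -0.15, and Cebpb, a bZIP factor that pairs with ATF4, showed -0.26 and -0.43. Cebpb stood at 38.6, 32.5, 37.5 and 27.9 FPKM, and exons of Tmem189 on the opposite strand overlap 20.7% of its exon length, so reads of both could not be separated. Atf5 was lower by nearly the same ratio in both pairs, -0.17 and -0.16. Atf4 was lower in Zfp871-/- at -0.22 (interval -0.28 to -0.16) and marginally higher in the double null at 0.06 (interval 0.01 to 0.11). In all, 7 of the 8 regulators were lower in the first pair, where 50.5% of all genes were, with a median of -0.24. In the second pair 6 of 8 were, where 49.1% of all genes were, with a median of -0.16.

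The effectors were mostly lower too. 6 of the 7 were lower in each pair, where 50.5% of all genes were with Trp53 present and 49.1% without it. The medians were -0.54 with Trp53 present and -0.19 without it. Vldlr was lower by -0.83 and -0.21. Gdf15 showed -0.60 (interval -0.96 to -0.25) and -0.17, the latter within its counting interval of -0.80 to 0.44. Stc2 was lower in Zfp871-/- at -0.54, while in the double null the interval around 0.19, from -0.05 to 0.43, included no difference. Sesn2, the gene with the second largest fitted change on Trp53 loss, showed 0.10 and -0.19.

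The biosynthetic enzymes and the tRNA synthetases had medians near 0. The 8 amino acid and one-carbon genes stood at -0.02 and 0.04. In the first pair 4 of 8 were lower and in the second 3, where 50.5% and 49.1% of all genes were. Pycr1, the last enzyme of proline synthesis, was the exception, at -0.72 (interval -0.92 to -0.53) and -0.45 (interval -0.66 to -0.24). Mthfd2 was higher in Zfp871-/- at 0.21 and nearly level in the double null at 0.04. The 5 synthetases stood at 0.07 and -0.02, and all 10 of their ratios lay between -0.08 and 0.09.

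The endoplasmic reticulum genes were lower in nearly every case, by small amounts. With Trp53 present 7 of 8 were lower, where 50.5% of all genes were, with a median of -0.24. Without it all 8 were, where 49.1% of all genes were, with a median of -0.12. Dnajb9, the co-chaperone ERdj4, stood at 11.8, 7.67, 9.20 and 7.49 FPKM and was lower by -0.62 and -0.30. Hspa5 was lower by nearly the same ratio in both, -0.20 (interval -0.23 to -0.17) and -0.17 (interval -0.20 to -0.14). Xbp1 was lower by -0.12 with Trp53 present and -0.37 without it, at 32.1, 29.8, 30.3 and 23.6 FPKM. Herpud1, which acts in degradation of misfolded proteins, showed -0.31 and -0.09, and Calr -0.28 and -0.07. Hsp90b1 was the exception, at 0.12 and -0.14.

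**Figure D3:**
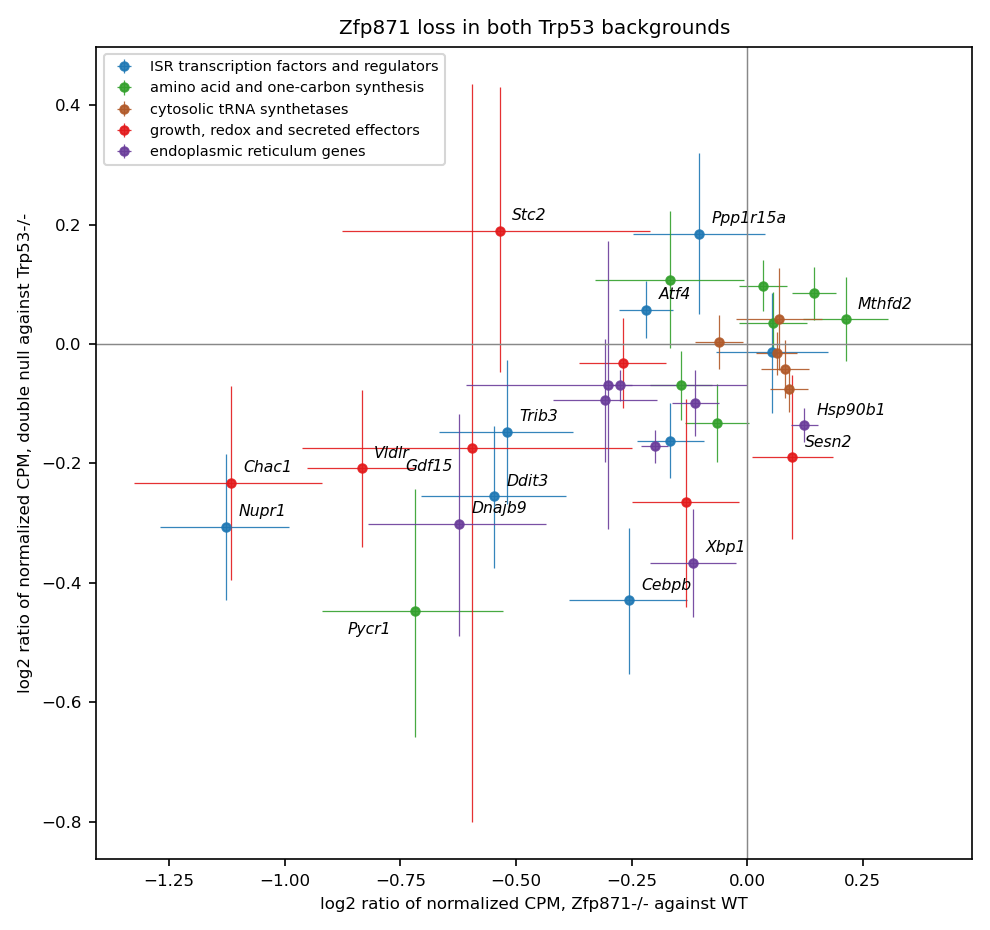
Log2 ratio of normalized CPM for Zfp871 loss, with Trp53 present on the x axis and without it on the y axis, 1 point per gene, coloured by role, with exact 95% counting intervals as lines and no ring because no gene passed the edgeR test. Nupr1, Chac1, Vldlr and Pycr1 lie farthest to the left, between -0.72 and -1.13, and all 4 are between -0.21 and -0.45 on y. The lower left field, below 0 on both axes, holds 20 of the 36 genes, against 27% of all genes tested.

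Most of the 36 genes were lower with Zfp871 loss. With Trp53 present 25 of 36 genes were lower by any amount, where 50.5% of all genes were, and without it 26 of 36 were, where 49.1% were. Lower in both were 20 of 36, against 27% of all genes. The interval lay below equal in both pairs for 15 of 36, against 5.95% of all genes, and above equal in both for 1, Phgdh, against 8.24%. Intervals on opposite sides of equal were found for 4 of 36, Atf4, Aars, Sesn2 and Hsp90b1, against 9.52%. Because these genes are counted more deeply than most, the same was asked of genes with a mean of at least 500 counts, a limit chosen after the values were seen: 13 of 31 such genes were below equal in both, against 7.7% of 6893 genes. Zfp871-/- was the lowest of the 4 libraries for 13 of the 36, against 23% of all genes. This is a description of 4 libraries, and culture differences cannot be told apart from genotype. The list was chosen with earlier results of these data known, so setting its shares beside those of all genes is not a test of an excess. The cartilage and bone markers summed to 779 CPM in WT and 86.6 in Zfp871-/-, mostly through Col2a1 (11633 against 558 counts) and Acan (1919 against 166), while Sox9 was nearly level (798 and 771) and Sp7 higher in Zfp871-/- (36 and 85). All 6 epithelial and mesothelial markers tested were at least 2-fold higher in Zfp871-/- than in WT, where 3.52% of all genes were. In the double null against Trp53-/-, 4 of the 6 were at least 2-fold lower, where 1.01% were. Krt8, Krt18, Upk3b and Wt1 stood at 0.15, 0.575, 0.946 and 0.362 CPM in WT and passed the filter only through other libraries. These counts of markers are thus partly fixed by the filter. Of the markers not tested, Epcam had 0 counts in WT and 2 in Zfp871-/-, and Cdh1 had 5 and 1. The part of either set in these differences was not tested. In the pair without Trp53 the macrophage markers stood at 793 and 673 CPM.

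The 4 genes lowest in Zfp871-/- against WT, Nupr1, Chac1, Vldlr and Pycr1, were among the 7 with a CARE match printed above. In the ATF4 arm 24 of 28 genes were searched, and the relation of matches to ratios was not tested. Of the other genes with a match, Herpud1 showed -0.31, Asns -0.14 and Gars 0.08. In the double null against Trp53-/- the lowest were Pycr1 at -0.45, Cebpb at -0.43, Xbp1 at -0.37 and Nupr1 at -0.31. Cebpb and Xbp1 had no CARE match, and Chac1 at -0.23 and Vldlr at -0.21 were not among the lowest there. The genes with an ERSE match, Calr, Hspa5 and Hsp90b1, showed -0.28, -0.20 and 0.12. A p53 half-site was not among the letters of the windows of Sesn2, Ddit4 and Gdf15, the 3 genes that fell with Trp53 loss.

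**Figure D4:**
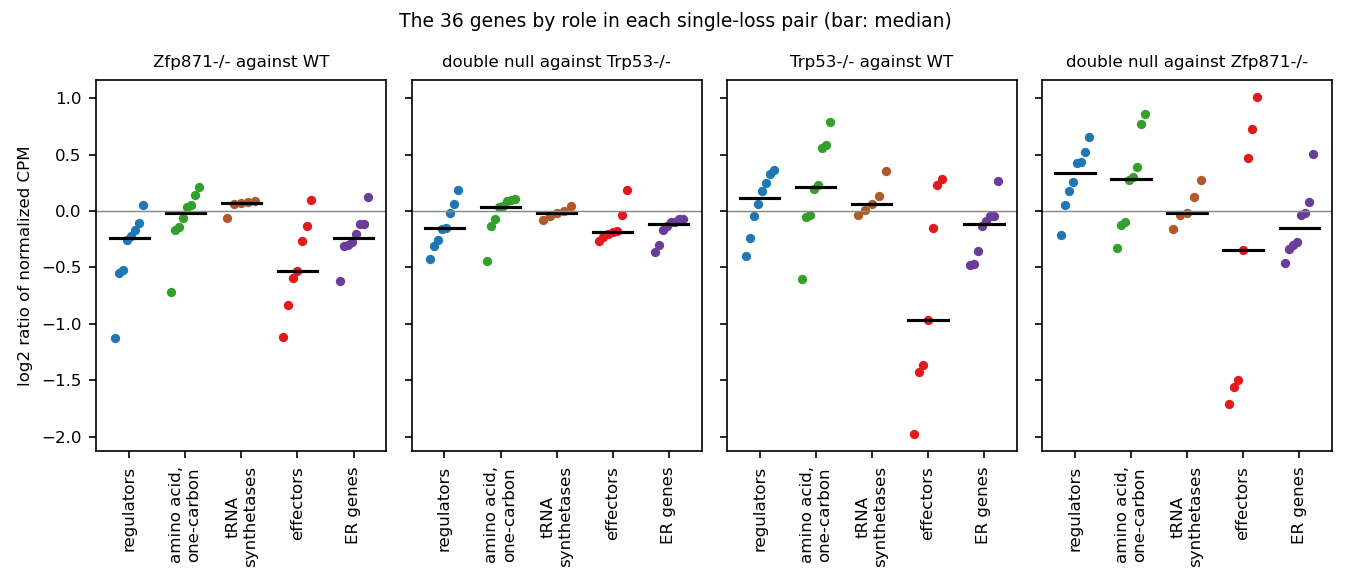
Log2 ratios of normalized CPM of the 36 genes in the 4 pairs that differ by 1 gene, 1 point per gene, split by role, with the median of each role as a bar. The tRNA synthetases stay near 0 in both Zfp871 pairs, whereas the effector median is -0.54 with Trp53 present and -0.19 without it. In the Trp53 pairs the effectors spread from -1.98 to 1.01.

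The double null combined both losses. Against WT, the ATF4 arm had a median of 0.05 with 12 of 28 lower, and the endoplasmic reticulum genes a median of -0.34 with 7 of 8 lower, where 50.1% of all genes were. 5 of the 36 were at least 2-fold lower, where 9.23% of all genes were: Gdf15 at -2.15, Ddit4 at -1.63, Sesn2 at -1.61, Vldlr at -1.18 and Pycr1 at -1.05. None was at least 2-fold higher, where 8.79% of all genes were, and Shmt2 came nearest at 0.83. For Vldlr and Pycr1 both single nulls were already below WT, at -0.83 and -0.97 for Vldlr and -0.72 and -0.60 for Pycr1.

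In a list of 14 genes, mostly eIF2 kinases, stress sensors and eIF2 or eIF2B subunits, 0 passed for either loss. Of all genes, 5.01% rose and 4.31% fell with Trp53 loss, and 0% did with Zfp871 loss. Eif2ak3, which encodes PERK, had 938, 682, 748 and 625 counts and was lower in all 4 pairs, at -0.46 and -0.35 for Zfp871 loss and at -0.54 and -0.43 for Trp53 loss (edgeR adjusted p = 0.0873 for the latter). Eif2ak2, the kinase PKR that senses double-stranded RNA, had 1480, 1616, 2681 and 2639 counts, at 0.65 and 0.41 for Trp53 loss.

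Of 24 further ATF4 targets tested, 3 rose with Trp53 loss and 0 fell, where 5.01% and 4.31% of all genes did. Slc7a3, a transporter of cationic amino acids, had 210, 172, 558 and 600 counts (edgeR log2 change 1.35, SE 0.171, adjusted p = 0.0285). Cth, which makes cysteine from cystathionine, had 254, 210, 618 and 632 (1.18, SE 0.156, edgeR adjusted p = 0.0303). Shmt1, the cytosolic counterpart of Shmt2, had 194, 266, 603 and 703 (1.26, SE 0.166, edgeR adjusted p = 0.0301). In both Trp53 pairs all 3 were at least 2-fold higher after normalization, at log2 ratios of 1.07 to 1.49. Of all genes, 8.9% were at least 2-fold higher in Trp53-/- against WT and 5.51% in the double null against Zfp871-/-. Atf3, a stress-induced repressor, had 42, 54, 145 and 168 counts and missed the threshold (1.45, edgeR adjusted p = 0.0518), and Cbs, the enzyme before Cth, had 35, 22, 5 and 8. Slc7a11, the cystine transporter that p53 is known to repress, had 232, 290, 375 and 156 counts, and so the double null lay below Trp53-/- (-1.34, interval -1.63 to -1.08). Fgf21 was not tested because of low counts.

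Among further synthetase and folding genes few passed, where 5.01% of all genes rose and 4.31% fell with Trp53 loss. Of 15 further cytosolic synthetases 0 passed, and Rars, for arginine, had the largest fitted difference with Trp53 loss, 0.46 (SE 0.203, edgeR adjusted p = 0.212), at 2897, 4384, 5925 and 5821 counts. Of 17 mitochondrial synthetases Lars2 alone passed, falling with Trp53 loss (-1.38, SE 0.125, edgeR adjusted p = 0.0189), at 28997, 45932, 12887 and 21696 counts, far above the 1868 to 2270 of Iars2, the next of its class. Its log2 ratios for Zfp871 loss were nearly equal in both backgrounds, 0.67 and 0.66. Of 32 further genes of endoplasmic reticulum folding and degradation, Hm13, the signal peptide peptidase, fell with Trp53 loss (-0.80, SE 0.13, edgeR adjusted p = 0.0403) and the others did not pass. 28 of these 32 were lower in Trp53-/- than in WT, where 49.9% of all genes were, and 24 of 32 in the double null against Zfp871-/-, where 49.8% were. In the double null against WT 31 of 32 were lower, where 50.1% of all genes were, with a median of -0.25.

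**Figure D5:**
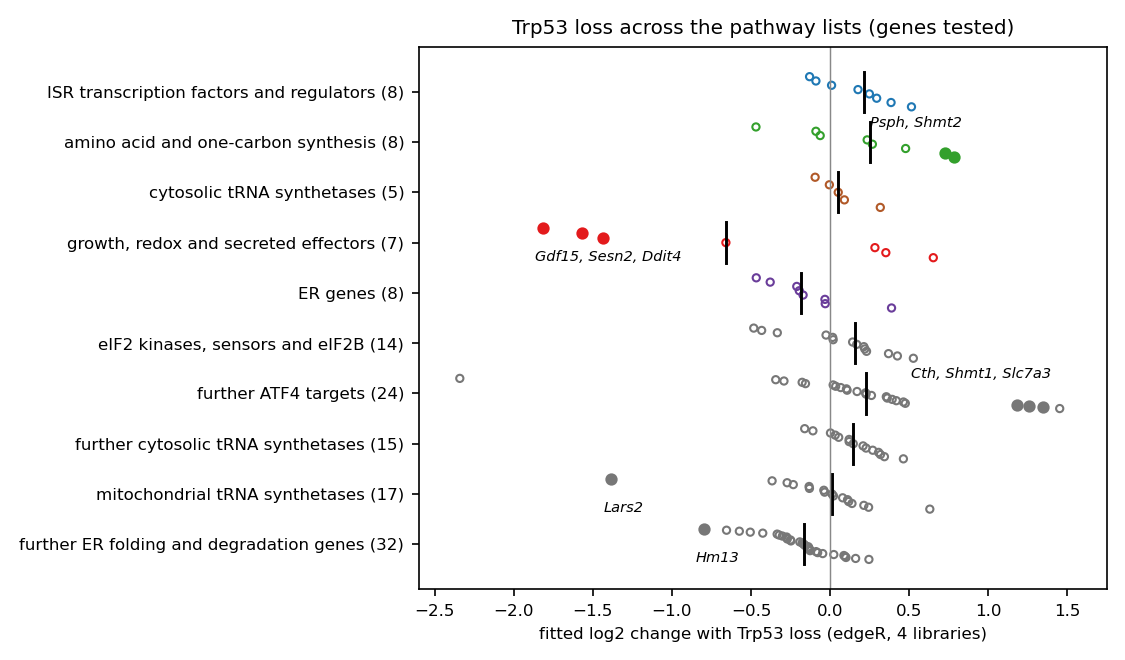
Fitted log2 change with Trp53 loss in the edgeR fit of 4 libraries for the 5 roles of the 36 genes, in colour, and for 5 further lists of the pathway, in grey, with 1 point per gene tested, the median as a bar and filled points for genes that passed. 10 points are filled, 5 of them among the 36 genes. The number of genes tested is given after each name.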

How the data were processed

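The data are RNA sequencing counts per gene of 4 MEF libraries, 1 per genotype, with 19303167 to 22324599 counts each. The submitters' processing notes name fastp, STAR and featureCounts and the mm10 build, while tool versions, strand setting and annotation were not given in the sources used here. Counts were deposited raw, as whole numbers. A further table per library, also deposited, holds values that have no stated unit and were read as FPKM, because each of 35 members, all but Nars, matched its count per kilobase of GENCODE M21 exon within 0.1%. They served only to set levels of genes side by side.

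Counts were scaled with TMM factors of 0.944 to 1.041 in edgeR 4.0.16 (R 4.3.3). Genes with at least 1 CPM in at least 2 libraries were kept. The additive quasi-likelihood fit (Trp53 + Zfp871, 1 residual degree of freedom) was adjusted by Benjamini-Hochberg at 0.05. It was also run on simulated counts with the same spread for all genes, taken from these libraries. That run held no culture differences, so it cannot speak for the spread between cultures. The 5 pairs of libraries, described at 2-fold, were compared as log2 ratios of CPM with a prior count of 2. Their exact Clopper-Pearson 95% intervals of the counts leave out all error but counting, because each side is 1 library. Reads lacking molecular identifiers need not be independent molecules, so the intervals may be too narrow even for counting. Nothing in the labels says that the libraries are repeated cultures. Alternatives were DESeq2 1.42.0, limma-voom 3.58.1, other scalings, filters, prior counts and designs, and leaving out each library. Promoters came from RefSeq (GRCm38.p6), where Wars and Eif4ebp1 had no entry; the promoters of Nars and Aars were not analysed here. All 36 genes may be named; from each other list, those past the test and the 2 highest and 2 lowest in each single-loss pair. The genes and lists were chosen with earlier results of these data known, and so were the cell type markers. Groups come from the labels; no sample was left out.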

Additional observations from a re-analysis of the deposited data

Results flagged for a closer look

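5 of the 36 genes had counting intervals on opposite sides of equal when 1 loss was compared between the backgrounds. The difference between backgrounds was not tested for any of them, since each genotype has 1 library. Over all genes tested, 5.88% had such opposite intervals for Trp53 loss and 9.52% for Zfp871 loss.

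For Trp53 loss, Nupr1 was lower in Trp53-/- than in WT at -0.40 and higher in the double null than in Zfp871-/- at 0.42. For Zfp871 loss, Atf4 was lower with Trp53 present at -0.22 and higher without it at 0.058. Sesn2 showed the reverse order, at 0.10 with Trp53 present and -0.19 without it. Hsp90b1 was likewise higher with Trp53 present at 0.12 and lower without it at -0.14. Aars showed 0.091 with Trp53 present and -0.076 without it.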

How the results depend on the processing

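No paired analysis was possible because each genotype has 1 library and the labels carry no replicate numbers. The 2 genes called higher and 3 called lower with Trp53 loss stayed called under all 7 alternatives that kept the 4 libraries; without a filter on low counts 5 were called lower, with Pdia4 and Vldlr added, and under total counts 3 were called higher, with Mthfd2 added. Leaving out 1 library at a time, with Trp53 as the only factor, moved the number called higher from 0 to 10 and the number called lower from 0 to 9; with either Trp53-null library left out the fit called 0 genes in the table, and the cause was not tested. With Zfp871 loss 0 of the 36 were called under the same 7 alternatives, and no library was left out for that loss. Total-count scaling moved the medians most: for the endoplasmic reticulum genes to -0.29 in Zfp871-/- against WT, -0.022 in Trp53-/- against WT, -0.012 in the double null against Zfp871-/- and -0.25 in the double null against WT, and for the ATF4 arm to 0.15, 0.36 and 0.14 in the last 3 of these pairs.

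34 fitted changes changed sign, each of a gene that did not pass for the loss in question. For Trp53 loss under total counts, Ppp1r15a went to 0.025, Phgdh to 0.052, Aldh18a1 to 0.025, Gars to 0.021, Wars to 0.11, Hspa5 to 0.082 and Herpud1 to 0.084. Nupr1 went to -0.086 with Trp53 as the only factor and to -0.025 by limma-voom. Leaving out single libraries gave Cebpb 0.006 to 0.079, Nupr1 -0.55 to -0.25, Trib3 -0.013, Ppp1r15a 0.001, Phgdh 0.008, Aars -0.002, Wars 0.016 to 0.027, Chac1 -0.27, Hspa5 0.049 to 0.062, Herpud1 0.008 to 0.12 and Dnajb9 0.12 where the sign changed. For Zfp871 loss, total counts gave Cebpg -0.006, Aars -0.018, Gars -0.005 and Nars -0.002. Zfp871 as the only factor gave Psph 0.004, Sesn2 0.025 and Hsp90b1 0.001, and Hsp90b1 was also 0.001 with DESeq2 size factors and by the DESeq2 Wald test. The counting intervals of most genes are narrow and those of Gdf15 wide, while the spread between cultures of 1 genotype is not measured.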
